A study of Rattus norvegicus with 1 sample.

Results

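In order to describe how input DNA was spread over the distal end of rat chromosome 1, the 100 kb bins from position 219000001 to the last sequenced tag were examined. These were 490 non-overlapping bins out of 2680 on chromosome 1 and 27197 over chromosomes 1 to 20 and X. The bins were chosen by their measured tag density, so that their height above the rest of the genome is given below as a description and was not tested. They were divided at 260 Mb into a proximal segment of 410 bins (219000001 to 260000000) and a terminal segment of 80 bins (260000001 to the last 5′ end at 267909708). The near reference was the preceding stretch of the same chromosome, 970 bins from 122000001 to 219000000. Positions are 1-based on the rat genome build rn4.

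The data were 1 library of input DNA from PCCl3, an established line of differentiated rat thyroid follicular cells that grows in medium with thyrotropin, insulin and other hormones. The study used it as the background for mapping Pax8, the thyroid transcription factor. The DNA came from formaldehyde-fixed, sonicated chromatin taken ahead of the immunoprecipitation, with no antibody, and it was size-selected and amplified by PCR before sequencing. There was 1 group with 1 library of 1 cell line, and no normal thyroid or matched rat DNA was analysed here, so no value below has a replicate error.

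Input DNA samples the genome without selection for a protein. Tags per region therefore follow the number of DNA copies, but they also follow how readily a sequence is fragmented, amplified and placed uniquely by the aligner. A broad stretch of chromosome with more tags than its surroundings raises the local background against which binding peaks are called. The parts that these properties played in the densities below were not tested, because no second DNA sample and no sequence of rn4 were used here. For orientation by name only, the RefSeq table of the later assembly GRCr8 lists among the last 15 named protein-coding genes of chromosome 1 Emx2, a homeobox factor of forebrain and urogenital development, Eif3a, a subunit of a translation initiation factor, Prdx3, a mitochondrial peroxiredoxin, and Grk5, a kinase of G protein-coupled receptors. These genes were not placed on rn4.

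The library held 6714002 tags, of which 771795 lay on chromosome 1. Keeping 1 tag per 5′ end and strand left 5985139 distinct tags, and 687775 of these lay on chromosome 1. The autosomal median was 188 distinct tags per 100 kb, over 24643 of 25590 bins after bins under 42.75 distinct tags were left out. Over the autosomes 10.8% of tags were repeated, that is, fell on a 5′ end and strand already taken.

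The proximal segment held 130706 distinct tags (exact Poisson 95% interval 129998 to 131417), or 19.0% of those on chromosome 1. Its median bin held 291 distinct tags, with quartiles at 198 and 428 and a range from 0 to 985. This was 1.55 times the autosomal median (95% order-statistic interval 1.44 to 1.67 over 401 retained bins). The terminal segment held 47409 distinct tags (46983 to 47838), or 6.89% of those on chromosome 1, and its median bin held 582, with quartiles at 454.5 and 725 and a range from 10, in the incomplete last bin, to 952. Its ratio to the autosomal median was 3.10 (2.93 to 3.52 over 79 retained bins). Intervals cover counting error or the spread over bins only, since PCR reads without molecular identifiers are not independent molecules and neighbouring bins are not replicates.

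Measured directly, the proximal segment lay above the near reference as a whole but not above all of it. The near reference had a median ratio of 1.28 (1.197 to 1.37), its last 5 Mb had 0.753, and its distal stretch, from 167000001 to 219000000, had 1.55, the same value as the proximal segment (ratio between them 1.00). The terminal segment had 2.0 times the median of the proximal segment and 2.43 times that of the near reference. Bins at least 1.5 times the autosomal median were 205 of 401 (51.1%) in the proximal segment and 78 of 79 (98.7%) in the terminal segment, beside 40.5% in the near reference and 29.5% over all autosomal bins. These shares restate the density by which the bins were selected.

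**Figure D1:**
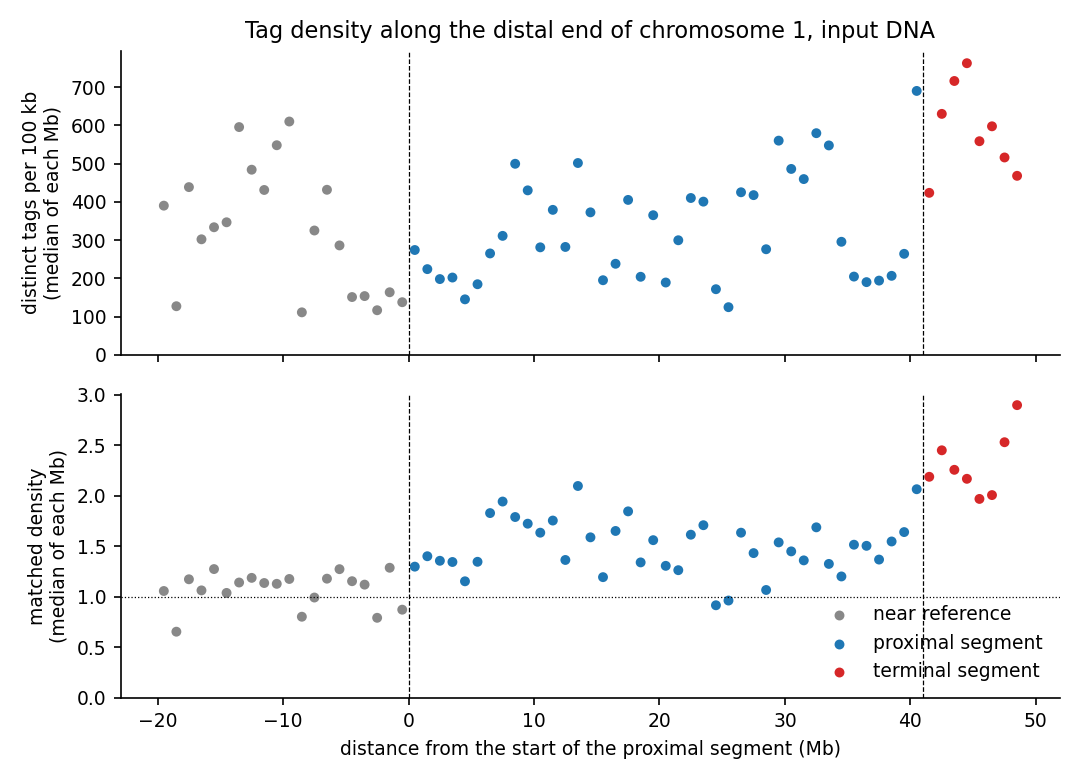
Median distinct tags per 100 kb (upper) and median matched density (lower) of each 1 Mb of the last 20 Mb of the near reference (grey), the proximal segment (blue) and the terminal segment (red), by distance in Mb from the start of the proximal segment. Dashed lines mark the limits of the segments and the dotted line a matched density of 1. The grey and blue points overlap in counts, while matched densities of the 8 terminal points lie between 1.97 and 2.90.

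Bins with more repeated tags also held more distinct tags in this library, so that segments of unequal repeated share are not compared at the same level. On the other 19 autosomes the median count rose from 139 distinct tags in bins with a repeated share of 5 to 7% to 373 in bins with 13 to 15%. The repeated share was 10.1% in the proximal segment (Clopper-Pearson 95% interval 9.90% to 10.2%), 11.5% in the terminal segment (11.2% to 11.7%), 11.2% in the near reference and 11.95% in the distal stretch of the latter. Each bin was therefore divided by the median count of bins on other autosomes within the same 0.5 percentage points of repeated share. This quotient is called the matched density here, and it is 1 for a typical bin of the other autosomes.

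Matched in this way, the proximal segment lay further above the near reference and also above its distal stretch. Its median matched density was 1.51 (1.44 to 1.55), with quartiles at 1.198 and 1.83, against 1.12 (1.08 to 1.15) in the near reference and 1.18 in its distal stretch. The terminal segment had 2.26 (2.12 to 2.38), with quartiles at 1.92 and 2.53. The proximal segment was thus 1.35 times and the terminal segment 2.01 times the near reference, and the terminal segment was 1.49 times the proximal one. Matching lowered the contrast between the segments from 2.0 to 1.49 and raised that between the proximal segment and the near reference from 1.21 to 1.35.

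At least 1.5 times the matched count was found in 206 of 401 bins (51.4%) of the proximal segment and in 73 of 79 (92.4%) of the terminal segment, compared with 16.9% in the near reference and 14.9% over all autosomes. At least 2 times the matched count was found in 70 bins (17.5%) and 54 bins (68.4%), compared with 1.70% in the near reference and 3.19% over all autosomes. Bins at or above a matched density of 1 numbered 344 in the proximal segment, and 57 (14.2%) lay under it, compared with 37.45% under it in the near reference and 49.6% on the other autosomes. In the terminal segment only 1 of the 79 bins lay under 1, the bin from 265100001 to 265200000 with 153 distinct tags and a matched density of 0.9503.

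**Figure D2:**
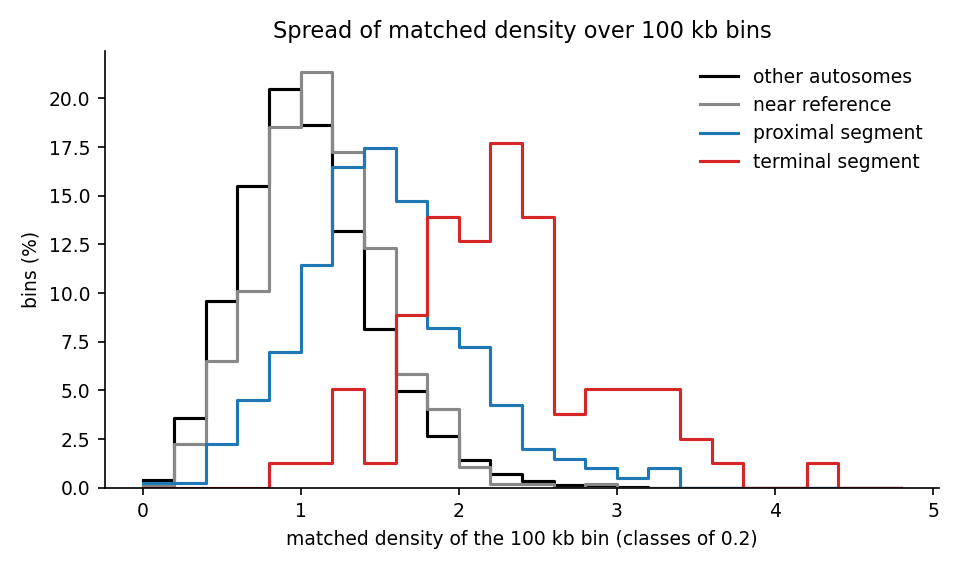
Share of 100 kb bins (percent) by matched density, in classes of 0.2, for the other autosomes, the near reference, the proximal segment and the terminal segment. The curve of the proximal segment is displaced to the right of the near reference with a median of 1.51, and that of the terminal segment lies further right with a median of 2.26.

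The order of the segments held in each of the 5 classes of repeated share compared, from 5 to 15%, and bins outside these shares were not compared in this way. In bins with 5 to 7% the median count was 199 in the proximal segment (89 bins) and 441.5 in the terminal segment (10 bins), or 1.43 and 3.18 times the median of the other autosomes, while the near reference had 1.22. In bins with 9 to 11% the ratios were 1.49 and 2.35, and the near reference had 1.21. In bins with 13 to 15% they were 1.36 and 2.0, and the near reference had 1.09. The ratio of the terminal segment fell through all 5 classes, from 3.18 to 2.51, 2.35, 2.19 and 2.0, whereas that of the proximal segment stayed between 1.36 and 1.53. A single factor for the terminal segment therefore depends on the repeated share at which it is read.

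**Figure D3:**
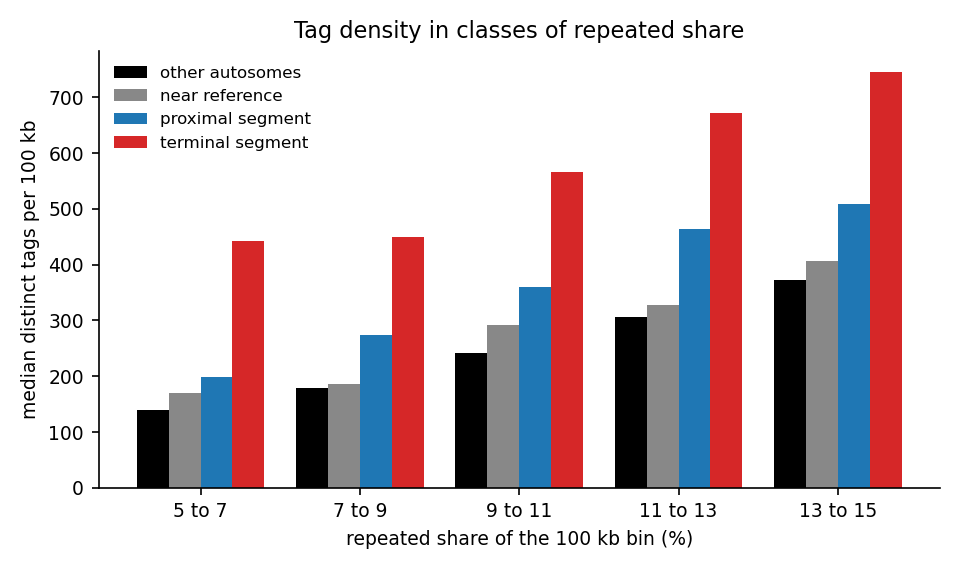
Median distinct tags per 100 kb in 5 classes of repeated share (percent), for the other autosomes, the near reference, the proximal segment and the terminal segment. Bars start at 0. The terminal segment is highest and the proximal segment second in each class shown.

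Matching on another property of the tags gave a lower value for the terminal segment. This was the excess of opposite-strand tag pairs at shifts of 130 to 210 bp, over pairs at 330 to 410 bp. Pooled over each region it was 295 per 1000 plus-strand tags in the terminal segment and 199 in the proximal segment. It was 206 in the near reference and 235.5 in the distal stretch of the latter. For the other autosomes only the median over 1 Mb bins was taken, 88.5 (quartiles 24.5 and 206.5). That median is not pooled, so it cannot be compared directly with the values of the regions. With bins matched on this excess, the density of the terminal segment was 1.58 in place of 2.26, and that of the proximal segment 1.44 in place of 1.51. The terminal segment still had the higher value, but the gap between the segments was smaller with this matching. The excess was itself highest in the densest segment, and whether matching on it, or on the repeated share, removes part of the density itself was not tested.

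Among windows of 8 Mb, moved along the other 19 autosomes in steps of 1 Mb, none had a median matched density as high as the terminal segment. The highest were on chromosomes 10, 11 and 9, at 1.85, 1.83 and 1.82. For windows of 41 Mb, the length of the proximal segment, chromosome 10 reached 1.67, above the 1.51 of the proximal segment, and chromosomes 9 and 11 reached 1.32 and 1.28. Since the segments were chosen for density and the windows were the highest of each chromosome, both are descriptions.

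The place of the density change near 260 Mb was then located by the best division into 2 levels within 20 Mb on each side. It lay at 259.1 Mb in bins of 100 kb, 259.05 Mb in bins of 50 kb and 259.06 Mb in bins of 20 and 10 kb, before the limit of 260 Mb that defines the terminal segment. The levels to the right were 1.80 to 1.93 times those to the left. When the search was narrowed to 5 Mb on each side, the place was between 259000001 and 259060001 and the right level was 2.97 to 3.29 times the left. The level therefore rose within the last bins of the proximal segment.

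The single bins showed an interrupted rise. From 258600001 to 258900000 the 3 bins held 70, 12 and 96 distinct tags, and the next bins, to 259200000, held 313, 408 and 732. Of the remaining 8 bins up to 260 Mb, 4 held 690 to 854 distinct tags, 3 held 293 to 545, and the bin from 259500001 to 259600000 held 12. The last bin before 260 Mb held 415 distinct tags (matched density 0.994), and the first bin after it held 905 (matched density 2.05). Over 1 Mb the median in fact fell across 260 Mb, from 690 to 423.5, while the matched median went from 2.06 to 2.19. With 5 Mb on each side of 260 Mb the count rose 2.79 times, and 3.27% of autosomal places changed as much. The matched density there rose 1.40 times, with 10.6% of places changing as much.

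**Figure D4:**
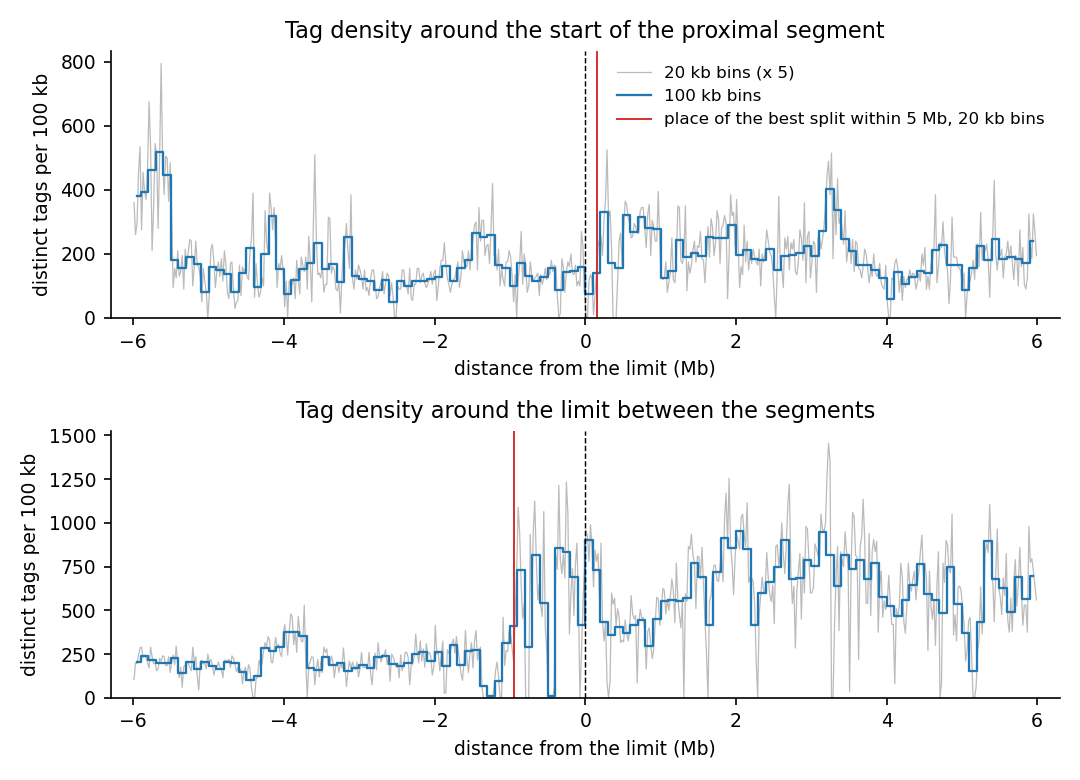
Distinct tags per 100 kb in bins of 100 kb (blue) and of 20 kb multiplied by 5 (grey), by distance in Mb from the start of the proximal segment (upper) and from the limit between the segments (lower), both dashed. The red line is the best division of 20 kb bins within 5 Mb on each side, at 219160001 in the upper panel and at 259.06 Mb in the lower one, where the counts change more than in the upper panel.

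The repeated share rose together with the density near 259.1 Mb. How much of the density change goes with the repeated share was not tested, since both are read from the same tags. In the 1 Mb from 258000001 the median count was 264 and the repeated share 6.70%, and in the next 1 Mb they were 690 and 13.4%. At 259.1 Mb the medians of the 10 bins on each side were 265 and 732, a factor of 2.76. A change as large in either direction was found at 2.51% of autosomal places. The place was picked by the search on the same counts and those places were not, so this share is a description. In matched density the same place changed from 1.61 to 2.06, a factor of 1.28, and 28.4% of places changed as much. With 5 Mb on each side the matched density went from 1.54 to 2.22 (1.44 times), and 7.92% of places changed as much, while the count rose 3.38 times, with 0.561% of places changing as much. The matched division fell at 259.3 Mb in bins of 100 and 50 kb and at 259.06 to 259.07 Mb in bins of 20 and 10 kb. Searched within 5 Mb on each side it was less settled, at 259300001 in bins of 100 kb, 260400001 in bins of 50 and 20 kb and 259070001 in bins of 10 kb.

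At the start of the proximal segment the density itself showed no dominant step. The best division within 20 Mb on each side lay at 210.2 Mb in bins of 100 and 50 kb and at 210.18 to 210.19 Mb in bins of 20 and 10 kb, inside the near reference, and it was a fall to 0.584 to 0.610 of the left level. There the medians of 10 bins went from 526 to 103, and 0.189% of autosomal places had a change as large. That place too was picked by the search, so the share is a description. Across position 219000001 the median of 10 bins rose from 137.5 to 274 distinct tags, 1.99 times, with 8.63% of places changing as much. With 5 Mb on each side the count rose 1.39 times, and 47.75% of places changed as much. The last bin before it held 159 distinct tags (matched density 0.903) and the first bin of the segment held 75 (matched density 0.688). Within 5 Mb on each side the best division was between 219150001 and 219200001 for all bin sizes, with a right level of 1.40 to 1.58 times the left.

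In matched density there was a rise at the limit and another several Mb beyond it. Across position 219000001 the medians of 10 bins went from 0.872 to 1.30 (1.49 times), and 10.8% of autosomal places changed as much. The best division within 20 Mb lay at 224.88 to 224.9 Mb for all bin sizes, with right levels 1.52 to 1.54 times the left. The change over 1 Mb at this place, again picked by the search, was from 1.21 to 1.79, and 11.3% of autosomal places changed as much. With 5 Mb on each side of 219000001 the matched density went from 1.02 to 1.31 (1.28 times), and 21.3% of places changed as much. In blocks of 5 Mb the matched density was 1.04, 1.12, 1.16 and 1.02 over the last 20 Mb of the near reference, then 1.31 in the first and 1.74 in the next block of the proximal segment. By the change over 10 bins on each side, tag counts changed more at 259.1 Mb (2.76 times) than at 219000001 (1.99 times). Matched density changed more at 219000001 (1.49 against 1.28 times). With 5 Mb on each side the order in matched density turned, with 1.28 times at 219000001 and 1.44 times at 259.1 Mb. These are unlike places, since 259.1 Mb was picked by the search on these counts and 219000001 was a limit of the segments. At the limit of 260 Mb the medians of 10 bins fell to 0.614 in counts and rose 1.06 times in matched density. Changes larger than these were found inside the proximal segment, 3.89 times in counts at 244900001 and 2.52 times in matched density at 245300001, beside its longest run of bins without a tag. Larger ones still were falls inside the near reference, to 0.182 of the count at 210000001 and to 0.354 of the matched density at 159900001.

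Inside the proximal segment the matched density was not flat. Its 5 Mb blocks went from 1.74 and 1.71 (224000001 to 234000000) to 1.55, 1.39, 1.34 and 1.39 (234000001 to 254000000) and 1.54 (254000001 to 259000000). Of its 41 bins of 1 Mb, 21 had a matched median of at least 1.5, and the range was 0.916 to 2.10. The lowest were 0.916 and 0.963, from 243000001 to 245000000, and the highest was from 232000001 to 233000000. In the near reference 4 of 97 bins of 1 Mb reached 1.5, and on the other autosomes 6.20% of 2273 did. All 8 bins of 1 Mb in the terminal segment had 1.97 or more, and its blocks of 2 Mb had 2.35, 2.21, 1.99 and 2.78 in order towards the end, the last with a repeated share of 8.55%.

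The bins with the most distinct tags in the proximal segment held 985 (251500001 to 251600000), 982 (252600001 to 252700000) and 854 (259600001 to 259700000). In the terminal segment they held 952 (262000001 to 262100000), 948 (263100001 to 263200000) and 916 (261800001 to 261900000). The highest counts of the segments were therefore close to each other. The fewest differed: the proximal segment had bins with no tag, such as 237200001 to 237300000, while the fewest in complete bins of the terminal segment were 153 (265100001 to 265200000) and 295 (260800001 to 260900000).

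The terminal segment had a lower spread over bins than the longer proximal one. Evenness was measured as the coefficient of variation (CV) of 100 kb counts after the variance of Poisson counting was subtracted. The CV was 0.280 in the terminal segment (SD 0.0789 over 4 blocks of 2 Mb), 0.5004 in the proximal segment (SD 0.0888 over 21 blocks) and 0.553 in the near reference. For matched densities the values were 0.266, 0.342 and 0.343, so that the proximal segment and the whole near reference had nearly the same value. In bins of 10 kb the CV was 0.386, 0.600 and 0.639. The distal stretch of the near reference was slightly more even than the proximal segment on each measure. Its CV was 0.490 in counts (SD 0.126 over 26 blocks), 0.309 in matched density and 0.593 in bins of 10 kb. Among 272 windows of 8 Mb on the other autosomes the median CV was 0.429 (0.337 in matched density), and 11 windows were more even than the terminal segment (10 in matched density). Among 48 windows of 41 Mb the median was 0.545 (0.364 in matched density), and 12 were more even than the proximal segment (8 in matched density). The CV thus rose with the length of the window elsewhere, and how much of the gap between the segments goes with their lengths was not tested.

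Empty bins were a smaller share of the terminal segment. Bins of 10 kb without a tag were 6.93% of 4100 in the proximal segment and 3.92% of 791 in the terminal segment, compared with 5.78% in the near reference. Runs of at least 3 such bins numbered 30 in the proximal segment and covered 2260 kb, and the longest were from 244750001 to 245180000 (430 kb), from 238060001 to 238250000 (190 kb) and from 248850001 to 249010000 (160 kb). The terminal segment had 5 runs over 200 kb, none longer than 50 kb. Per Mb this was 0.732 runs in the proximal segment, 0.632 in the terminal segment and 0.443 in the near reference, and the runs covered 55.1, 25.3 and 45.4 kb per Mb. Windows of 1 kb without a tag were 22.0%, 10.8% and 25.7% of the proximal segment, the terminal segment and the near reference, and 21.8% of the distal stretch of the latter. Poisson counting at the mean density of each would leave 4.13%, 0.249%, 7.44% and 4.92% empty, so that this share falls with density in itself.

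Other readouts of the tags differed little from the near reference in strand and fragment length. The plus strand held 49.9% of distinct tags in the proximal segment (49.65% to 50.2%) and 50.0% in the terminal segment (49.5% to 50.4%), and the shift with most opposite-strand pairs was 165 bp in the proximal segment and 2 bp longer in the terminal segment and the near reference. Tag-rich windows, those of 1 kb whose count reached 10 times the mean of windows with any tag, numbered 60 in the proximal segment (1.46 per 1000 windows) and 28 in the terminal segment (3.54 per 1000), compared with 0.526 per 1000 in the near reference. The limit was the same for all regions, so that a denser region reaches it more easily. The distal stretch of the near reference, with the same median density as the proximal segment, had 0.827 per 1000. The reason for this difference was not tested. The fullest windows held 88 distinct tags (229841001 to 229842000) in the proximal segment and 64 (265466001 to 265467000) in the terminal segment, compared with 187 in the fullest window of the near reference.

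The deposited list carried a track line that divided it into 5664363 and 1049639 tags, and the sources do not state what the stretches were. Ratios to the autosomal median were 1.54 before and 1.53 after the line in the proximal segment, 3.07 and 3.20 in the terminal segment, and 1.28 and 1.23 in the near reference. These stretches come from the same DNA library as far as stated, and are not replicates.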

How the data were processed

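Input DNA of PCCl3 cells was sequenced, and the authors used the MIRO pipeline to align the 50 bp reads to rn4 with at most 2 mismatches. What they deposited was 1 line of position and strand for each tag, neither counted nor normalized. Not given in the sources used here were the aligner version, the handling of reads with several places and any removal of repeats. The labels name the sample input DNA, whereas the study's methods keep input and non-immunoprecipitated DNA apart, and the sampling point in the labels goes with the latter.

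Distinct tags were counted in 100 kb bins with Python 3.11.15, numpy 2.4.6, scipy 1.17.1 and pandas 2.3.3. Bins under 25% of the genome-wide median were left out. Matching used classes with at least 30 bins on the other autosomes. Divisions were least-squares fits on the log2 scale with at least 500 kb on each side. The code was tried on simulated data with a planted level and a step at the start of the proximal segment, in 100 kb bins. It was checked only within wide tolerances. The step between the segments and finer bins were not tried. Whether matched density returns a true level where density and repeated share rise together was not tested. The bins named were those beside each limit, the 3 fullest and 3 emptiest of each segment, and the 3 longest gaps. The bins from 258600001 to 260000000 were added after their values had been seen. Members and lists were chosen with earlier results of these data known. With 1 library there was no test and no p-value. No sequence or gene of rn4 was used here.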

Additional observations from a re-analysis of the deposited data

How the results depend on the processing

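Of 78 alternatives over 10 results, 58 stayed within the interval of the reported value (for step places, 1 bin of 100 kb; for evenness, 1 SD over blocks), and none turned a density to below 1. Means over bins gave densities of 1.39 and 2.57 for the proximal and terminal segments, and division by the near reference gave 1.21 and 2.43. The repeated share of the 1 Mb bin gave a matched density of 1.56 for the proximal segment, and matching on opposite-strand pairs gave 1.58 for the terminal segment. The step place at the start of the proximal segment, reported at 210.2 Mb, moved to 224.9 Mb in matched density and in matched 50 kb bins, to 224.88 Mb in matched 20 and 10 kb bins, and, within 5 Mb, to 219.2 Mb in counts and 219.5 Mb in matched density. The place near 260 Mb moved from 259.1 to 259.3 Mb in matched density, in matched 50 kb bins and in matched density within 5 Mb. In 10 kb bins the CV was 0.600 and 0.386, and in matched density it was 0.342 for the proximal segment. The repeated share was 9.88% for the proximal segment without tag-rich windows and 11.9% for the terminal segment without its outer 1 Mb. The causes were not tested. Alternatives on the track line, a division of the segments at 259000001, finer matched bins and the matched search within 5 Mb were chosen after seeing the data. No paired analysis was possible because the data held a single library. A median bin of 188 distinct tags limits the placement of steps in 10 kb bins.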
